A study of Canis lupus familiaris with 29 samples.

Results

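DUSP5 and DUSP6 encode dual-specificity phosphatases that remove the activating phosphates from the kinase ERK. They were followed through 8 groups of MDCK cell arrays. Both were taken by gene symbol: every probe set, a group of short probes against one transcript, whose platform annotation names DUSP5 or DUSP6 as its single gene. That gave 2 of 15115 genes named in this way, with 3 of the 43035 probe sets in the table, CfaAffx.16846.1.S1_at for DUSP5 and a pair for DUSP6. For DUSP6 the brighter probe set, Cfa.8933.1.A1_at, carries the main values, and CfaAffx.10147.1.S1_at is given beside it as the second probe set. All 3 passed the filter on low signal, which asked for a log2 level of 5 in at least 3 arrays and left 16571 probe sets to test.

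ERK is the last kinase of a cascade in which a growth factor receptor activates RAS, RAF and MEK, and MEK then phosphorylates ERK. DUSP5 is an inducible phosphatase of the nucleus and DUSP6 one of the cytoplasm. Both are selective for ERK and both genes are transcribed in response to ERK activity, so that each forms a negative feedback on the kinase that induces it. In cells treated with a MEK inhibitor their mRNAs are therefore widely read as markers of how much ERK output is left.

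MDCK is a long-established dog kidney epithelial cell line, here of the type II strain, that forms flat sheets on a surface and hollow cysts in a gel. Hepatocyte growth factor (HGF) binds the receptor kinase MET and makes such cells scatter or extend tubules. Gene expression was measured on 29 Affymetrix canine arrays, each a separate sample, in flat cultures (2D) and in cultures within collagen (3D). In each culture there were untreated controls, cells with HGF alone, cells with HGF and PD-98059, and cells with HGF and U0126. Both compounds inhibit MEK, and they are unrelated in structure. There were 4 arrays in each control group, 4 in each HGF group, 3 with PD-98059 in 3D, 4 with PD-98059 in 2D, and 3 with U0126 in each culture. No group received an inhibitor without HGF. The labels give no dose, no treatment time and no statement that arrays came from separate cultures, so differences between the inhibitors are those of these groups and not of matched doses. Every p-value therefore refers to the array-to-array spread within groups, part of which may be technical.

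The labelled epithelial identity was checked first. Of 9 epithelial marker genes with a probe set, 8 passed the filter on low signal, and CDH1 did not, with a highest level of 3.84 on the log2 scale. None of 8 fibroblast or 4 endothelial markers passed, their highest levels being 4.28 and 4.69. Of 5 leukocyte markers CD68 alone passed, and the others did not exceed 3.53. The mean level of the 5 leukocyte markers was 3.24 to 3.66 in 2D HGF arrays and at most 3.02 in the other groups. CD68 itself had a mean of 5.77 in 2D HGF against 2.78 in 2D control, a rise of 3.00. In 2D CD68 fell by 2.93 with each inhibitor, the direction of DUSP5 there, and its difference with HGF in 3D was -0.13 (limma adjusted p = 0.668). Its part in the results was not tested. The 3D HGF arrays agreed least with each other, with a lowest correlation of 0.964 against at least 0.987 in the other groups, and replicates 1 and 4 lay farthest from their group mean. An RNA-quality index, the mean 3′ excess of Affymetrix control probe sets in log2 units, was 0.838 in 2D HGF, 1.68 in 3D HGF, 1.93 in 3D control, and 1.31 to 1.65 in the other groups.

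DUSP5 rose strongly with HGF in both cultures, and both inhibitors lowered it. On the log2 scale its level in the 3D controls was 7.81, 7.90, 7.49 and 7.86, and in 3D HGF it was 9.21, 10.16, 10.07 and 10.23. With PD-98059 in 3D it was 8.19, 8.33 and 8.49, and with U0126 in 3D it was 7.36, 7.34 and 7.10. Thus the 3D groups stood apart without overlap, in the order HGF, PD-98059, control and U0126, and HGF replicate 1 was the low array of its group. In the 2D controls DUSP5 was 7.76, 7.53, 7.61 and 7.44, and in 2D HGF it was 10.73, 10.42, 10.70 and 10.82. With PD-98059 in 2D it was 6.93, 6.77, 7.82 and 7.19, and with U0126 in 2D it was 6.35, 6.89 and 6.47. In 2D the HGF arrays stood far above all others, 3 of 4 PD-98059 arrays and all 3 U0126 arrays lay below every control array, and the arrays of the inhibitors overlapped.

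DUSP6 rose with HGF as well, by less, and PD-98059 left most of its rise in place in 2D and part of it in 3D. In the 3D controls its log2 level was 13.00, 12.93, 12.92 and 12.72, and in 3D HGF it was 13.80, 13.69, 13.90 and 13.46. With PD-98059 in 3D it was 13.33, 13.36 and 13.43, and with U0126 in 3D it was 12.48, 12.64 and 12.77. The PD-98059 arrays lay between control and HGF without overlapping either, and the U0126 arrays overlapped the control arrays. In the 2D controls DUSP6 was 12.50, 12.54, 12.32 and 12.46, and in 2D HGF it was 13.55, 13.53, 13.55 and 13.47. With PD-98059 in 2D it was 13.27, 13.17, 13.41 and 13.54, and with U0126 in 2D it was 12.65, 12.80 and 12.96. Here the PD-98059 arrays reached into the range of HGF alone, while the U0126 arrays lay below every PD-98059 array and above every control array.

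In the second DUSP6 probe set the group means had the same order within each culture. In the 3D controls it was 10.08, 10.33, 10.34 and 10.37, and in 3D HGF it was 11.52, 11.41, 11.86 and 11.93. With PD-98059 in 3D it was 11.21, 11.10 and 11.20, and with U0126 in 3D it was 10.23, 9.90 and 10.32. The 3D PD-98059 arrays were again below every HGF array and above every control array. In the 2D controls it was 10.41, 10.44, 10.18 and 10.50, and in 2D HGF it was 11.19, 11.51, 11.78 and 11.68. With PD-98059 in 2D it was 11.20, 11.25, 11.57 and 11.68, inside the range of HGF alone, and with U0126 in 2D it was 10.65, 10.19 and 10.94. The U0126 arrays lay below every HGF array in 2D and overlapped the controls. Levels of different probe sets cannot be set against each other, since each binds its transcript with its own efficiency.

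**Figure D1:**
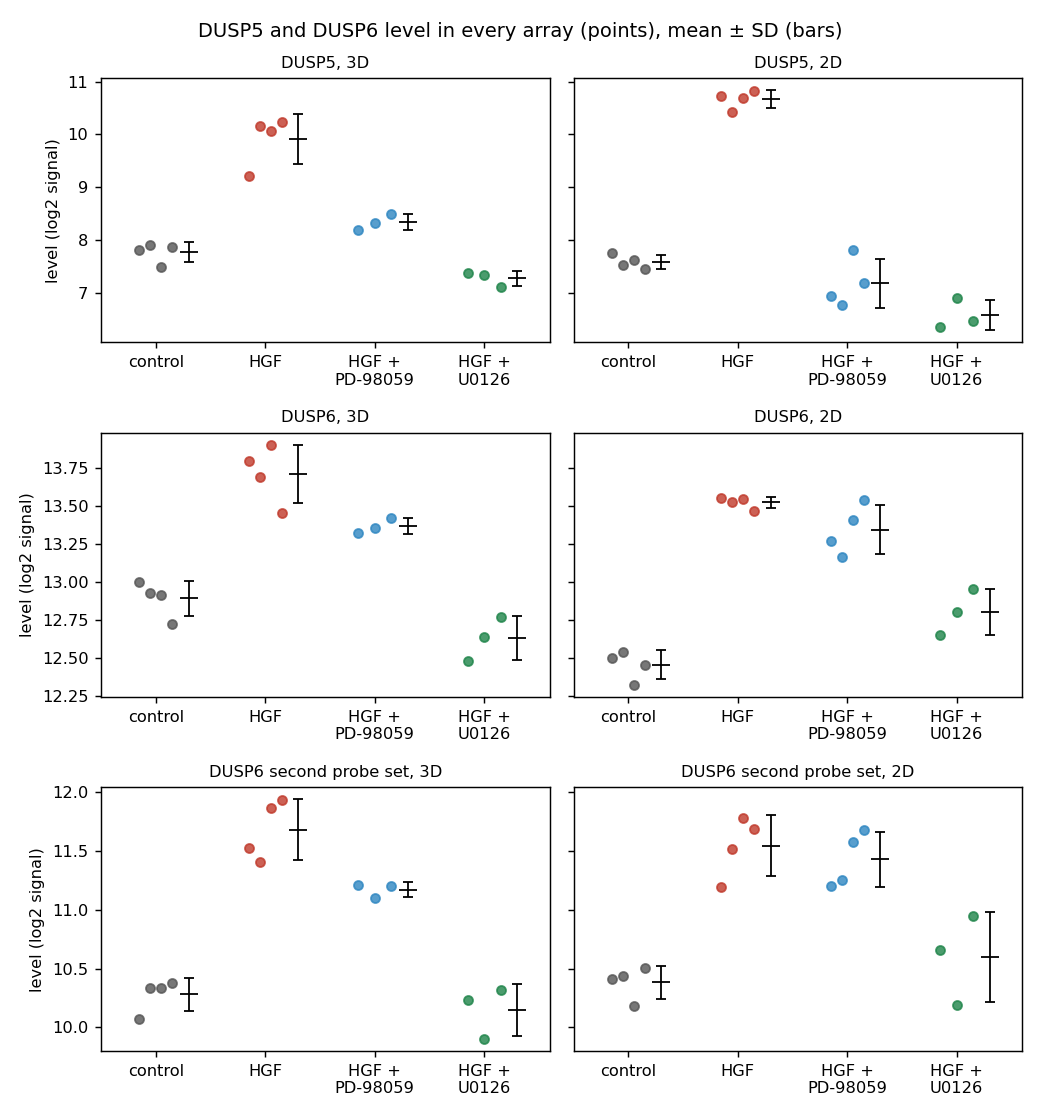
Level of DUSP5, DUSP6 and the second DUSP6 probe set (log2 signal, each row on its own axis) in every array of the 4 groups in 3D (left) and in 2D (right). Points are arrays in replicate order, and the bar beside them is the mean ± SD. With PD-98059 in 2D, DUSP5 falls to about the control level or below, while DUSP6 stays near HGF alone.

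Over the 8 groups DUSP5 covered the wider range. Its highest group mean, in 2D HGF, and its lowest, in 2D with U0126, differed by 4.10 on the log2 scale, which is 17.1-fold. This range was larger than that of 97.0% of all tested probe sets, whose median range was 1.14. DUSP6 covered 1.26, or 2.39-fold, from 3D HGF down to 2D control, which is larger than in 55.9% of tested probe sets. Its second probe set covered 1.53, or 2.89-fold, larger than in 66.6%. The SD within a group was 0.134 to 0.476 for DUSP5 and 0.0387 to 0.192 for DUSP6, so both ranges were several times the spread between arrays. Averaged over all arrays, the main DUSP6 probe set was brighter than 95.1% of tested probe sets, the second than 79.8%, and that of DUSP5 than 46.6%. Whether high brightness narrows the range of the main DUSP6 probe set was not tested.

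The order of the DUSP5 group means was 2D HGF (10.67 ± 0.170, SD, n = 4), 3D HGF (9.92 ± 0.476, n = 4), 3D PD-98059 (8.33 ± 0.148, n = 3), 3D control (7.77 ± 0.189, n = 4), 2D control (7.59 ± 0.134, n = 4), 3D U0126 (7.27 ± 0.143, n = 3), 2D PD-98059 (7.18 ± 0.460, n = 4) and 2D U0126 (6.57 ± 0.287, n = 3). Each of the first 3 differed from the next in limma, with adjusted p = 0.00180 between the HGF groups, 1.07e-06 between 3D HGF and 3D PD-98059, and 0.0367 between 3D PD-98059 and 3D control. The steps from 3D control down to 2D U0126 did not pass the threshold of 0.05 between neighbours. Each adjusted p here and below is a Benjamini-Hochberg value from limma, over all tested probe sets.

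For DUSP6 the order was 3D HGF (13.71 ± 0.192, SD, n = 4), 2D HGF (13.53 ± 0.0387, n = 4), 3D PD-98059 (13.37 ± 0.0512, n = 3), 2D PD-98059 (13.35 ± 0.162, n = 4), 3D control (12.89 ± 0.118, n = 4), 2D U0126 (12.80 ± 0.153, n = 3), 3D U0126 (12.63 ± 0.145, n = 3) and 2D control (12.45 ± 0.0948, n = 4). Among neighbours only 2D PD-98059 and 3D control differed, by 0.45 ± 0.09 (SE, limma adjusted p = 0.000177). By neighbours the DUSP6 means thus fell into an upper set, HGF alone or with PD-98059, and a lower set, control or U0126. Neither set was a single level. In the upper set 3D PD-98059 was 0.34 ± 0.10 below 3D HGF (limma adjusted p = 0.00644), and 0.51 below in the second probe set (adjusted p = 0.0137). In the lower set 3D control was 0.44 ± 0.09 above 2D control (limma adjusted p = 0.000265). In the second probe set the control difference was -0.10 (adjusted p = 0.599). The second probe set divided at the same place, with 0.57 between 3D PD-98059 and 2D U0126 (limma adjusted p = 0.00888). In DUSP5, by contrast, the largest step between neighbours was 1.58, between 3D HGF and 3D PD-98059, and set HGF alone apart from the other 6 groups.

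HGF raised both genes. In 3D DUSP5 rose by 2.15 ± 0.20 on the log2 scale (SE, 4.44-fold, limma adjusted p = 5.79e-10), and DUSP6 by 0.82 ± 0.09 (1.77-fold, adjusted p = 1.85e-08), where 29.4% of tested probe sets were called higher and 32.6% lower. In 2D DUSP5 rose by 3.08 ± 0.20 (8.45-fold, limma adjusted p = 7.39e-13), and DUSP6 by 1.07 ± 0.09 (2.10-fold, adjusted p = 1.89e-10), where 26.3% were called higher and 29.2% lower. The second DUSP6 probe set rose by 1.40 ± 0.15 in 3D and by 1.16 ± 0.15 in 2D. Fewer cells of a kind and less RNA per cell cannot be told apart in such bulk samples. Without 3D HGF replicate 1 the DUSP5 rise in 3D was 2.39.

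With the array as its own reference, DUSP5 rose more than DUSP6. DUSP5 minus DUSP6 shifted with HGF by 1.33 in 3D and by 2.01 in 2D, with no overlap between the arrays in either culture. An exact two-sided permutation test gave p = 0.0286 for each, the smallest that 4 against 4 arrays allow. After Benjamini-Hochberg adjustment over the 8 comparisons of this kind it was 0.0762. With these group sizes no outcome in any of the 8 could pass 0.05 after adjustment, so the adjusted values decide nothing. Against the second DUSP6 probe set the 2D shift was 1.92 without overlap, and the 3D shift was 0.75 with overlapping arrays (exact permutation p = 0.0571).

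PD-98059 lowered DUSP5 by more than DUSP6. In 3D it lowered DUSP5 by 1.58 ± 0.21 (SE, 2.99-fold, limma adjusted p = 1.07e-06) against HGF alone, and DUSP6 fell by 0.34 ± 0.10 (1.27-fold, adjusted p = 0.00644), where 15.4% of tested probe sets were called lower. In 2D DUSP5 fell by 3.49 ± 0.20 (11.2-fold, limma adjusted p = 6.41e-14), where 24.9% were called lower. DUSP6 in 2D differed from HGF alone by -0.18 ± 0.09, with a 95% interval of -0.37 to 0.01 (limma adjusted p = 0.103). It passed the threshold without 2D PD-98059 replicate 4, at -0.25 (adjusted p = 0.0320), with arrays weighted by their quality, at -0.20 (0.0380), with each array centred on its median, at -0.23 (0.0195), and with the RNA-quality index as a covariate, at -0.29 (0.0171). The second DUSP6 probe set fell by 0.51 ± 0.16 in 3D (limma adjusted p = 0.0137), and differed in 2D by -0.11 ± 0.15, with an interval of -0.43 to 0.20 (adjusted p = 0.566). In 3D the DUSP6 call ended when the arrays of the compared groups were fitted alone, with the same difference and an adjusted p of 0.0579.

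U0126 lowered both genes in both cultures, DUSP5 again by more. In 3D DUSP5 fell by 2.65 ± 0.21 (SE, 6.27-fold, limma adjusted p = 1.01e-10) and DUSP6 by 1.08 ± 0.10 (2.12-fold, adjusted p = 1.04e-09), where 23.8% of tested probe sets were called lower. In 2D DUSP5 fell by 4.10 ± 0.21 (17.1-fold, limma adjusted p = 1.67e-14) and DUSP6 by 0.72 ± 0.10 (1.65-fold, adjusted p = 8.39e-07), where 24.3% were called lower. In the second probe set DUSP6 fell by 1.53 ± 0.16 in 3D and by 0.94 ± 0.16 in 2D.

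Within arrays, DUSP5 minus DUSP6 dropped with each inhibitor. The shift was -1.24 with PD-98059 in 3D, -3.31 with PD-98059 in 2D, -1.57 with U0126 in 3D and -3.37 with U0126 in 2D, and in none of the 4 comparisons did arrays overlap. The exact two-sided permutation p was 0.0286 for PD-98059 in 2D and 0.0571 for each of the others, the smallest these group sizes allow, and 0.0762 for all after adjustment over 8 comparisons. Against the second DUSP6 probe set the same 4 shifts were -1.07, -3.37, -1.12 and -3.15, again without overlap.

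Set against the control level, the treated groups show how much of the HGF rise was left. DUSP5 with PD-98059 in 3D was 0.57 ± 0.21 above control (SE, limma adjusted p = 0.0367), where 21.6% of tested probe sets were called higher. That call was lost without 3D control replicate 1 or 3 or 3D PD-98059 replicate 2 or 3, with values of 0.48 to 0.58 and limma adjusted p of up to 0.132, and with the RNA-quality index as a covariate, at 0.38 (adjusted p = 0.111). DUSP5 with PD-98059 in 2D differed from control by -0.41 ± 0.20 (adjusted p = 0.135, limma), and by -0.62 without replicate 3 of that group, the one array that lay above the controls (adjusted p = 0.0160). In that comparison 25.6% of tested probe sets were called in either direction. With U0126 DUSP5 differed from control by -0.50 ± 0.21 in 3D (limma adjusted p = 0.0750, 33.8% called) and fell below control by 1.02 ± 0.21 in 2D (2.02-fold, adjusted p = 0.00120, 8.58% called lower).

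DUSP6 with PD-98059 stayed above control in both cultures. It was 0.48 ± 0.10 above control in 3D (SE, 1.39-fold, limma adjusted p = 0.000357) and 0.89 ± 0.09 in 2D (1.85-fold, adjusted p = 3.61e-08), where 12.5% of tested probe sets were called higher. The second probe set was above control by 0.89 in 3D and by 1.04 in 2D. With U0126 DUSP6 was 0.26 ± 0.10 below control in 3D (limma adjusted p = 0.0433, where 19.6% were called lower) and 0.35 ± 0.10 above it in 2D (adjusted p = 0.0147, where 8.45% were called higher). Neither of these small differences passed in the second probe set, which gave -0.13 in 3D (limma adjusted p = 0.585) and 0.21 in 2D (adjusted p = 0.432). The 3D one was lost without any of 3D control replicates 1, 2 and 3 or 3D U0126 replicates 1 and 2, with -0.27 to -0.19 and adjusted p of up to 0.237. The 2D one was lost without 2D control replicate 3, at 0.31 (limma adjusted p = 0.0506), or 2D U0126 replicate 3, at 0.27 (adjusted p = 0.102).

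**Figure D2:**
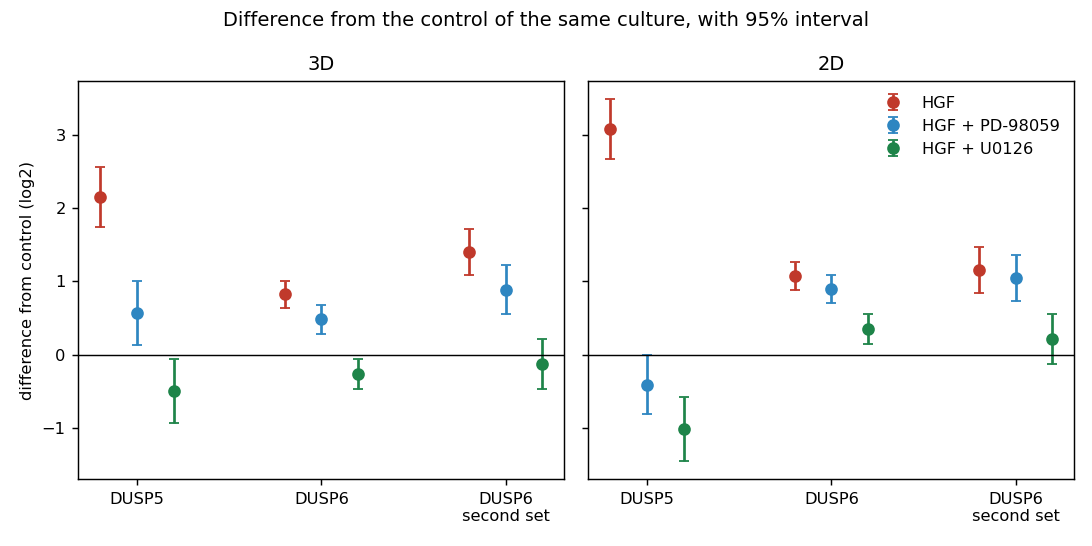
Difference of each treated group from the control of the same culture (log2, y axis) with its 95% interval from limma, for DUSP5, DUSP6 and the second DUSP6 probe set in 3D (left) and 2D (right). With PD-98059 in 2D, DUSP5 lies at -0.41 and DUSP6 at 0.89, close to its value of 1.07 with HGF alone.

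The share of the HGF rise that an inhibitor removed puts both genes on one scale. It is the drop from HGF alone divided by the rise from control, on the log2 scale, where 0% is the level with HGF alone and 100% that of control. Its 95% interval comes from Fieller's method and is not adjusted for the number of probe sets. An interval above 100% can therefore go with a difference from control that did not pass, as for DUSP5 with U0126 in 3D and PD-98059 in 2D. For DUSP5 in 3D, PD-98059 removed 73.6% (interval 55.4 to 93.5), with 80.2%, 74.0% and 66.5% in the single arrays. U0126 removed 123% (102 to 149), with 119%, 120.0% and 131%. For DUSP5 in 2D, PD-98059 removed 113% (100.1 to 129) and U0126 133% (118 to 151). The single arrays gave 121%, 127%, 92.6% and 113% with PD-98059 and 140.2%, 122% and 136% with U0126. Except for PD-98059 in 3D, the mean of DUSP5 was thus at its control level or below.

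The shares of DUSP6 were smaller than those of DUSP5 with PD-98059 in both cultures and with U0126 in 2D. In 3D PD-98059 removed 41.8% of the DUSP6 rise (interval 18.7 to 64.0), with 47.3%, 43.1% and 35.0% in the single arrays, and U0126 removed 132% (106 to 166), with 150.0%, 131% and 115%. In 2D PD-98059 removed 16.9% (-0.808 to 32.4), with 24.0%, 33.5%, 11.1% and -1.23%, and U0126 removed 67.4% (50.6 to 85.4), with 81.8%, 67.4% and 53.1%. No single array of DUSP6 with PD-98059 reached the lowest share seen for DUSP5 with the same compound in that culture. With U0126 in 2D the genes were apart as well, the highest DUSP6 array being 81.8% and the lowest DUSP5 array 122%. Shares in the second DUSP6 probe set were 36.5% and 9.91% with PD-98059 in 3D and 2D, and 109% and 81.6% with U0126. On the linear scale the DUSP5 shares in 3D were 86.6% with PD-98059 and 108% with U0126, and in 2D 103% and 107%, while those of DUSP6 were 49.6% and 121% in 3D and 21.7% and 74.8% in 2D. These shares use the same HGF arrays in both differences and are a description without a test.

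**Figure D3:**
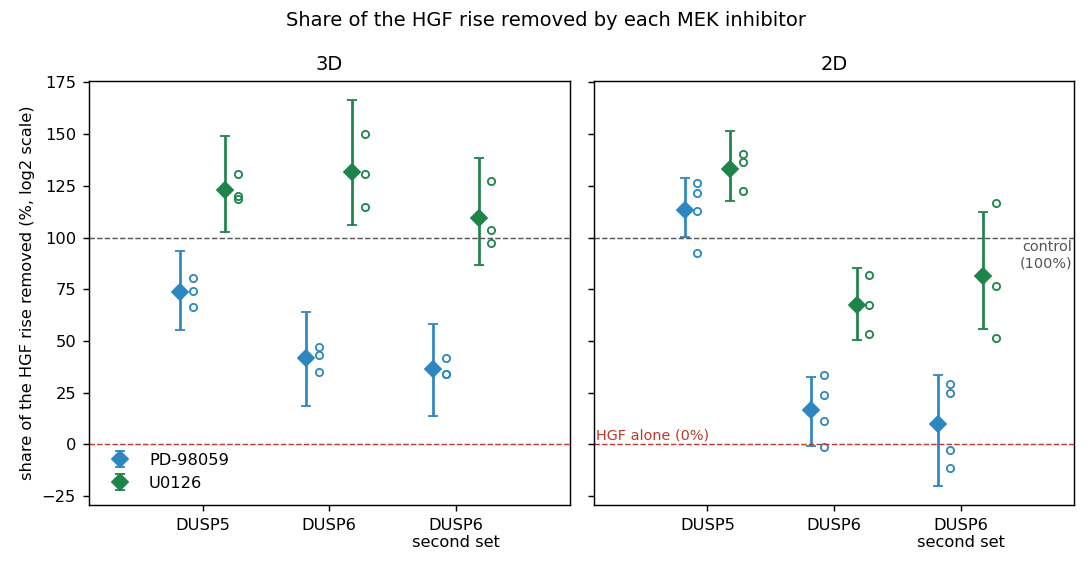
Share of the HGF rise removed by PD-98059 (blue) and U0126 (green) on the log2 scale (%, y axis), for DUSP5 and both DUSP6 probe sets in 3D (left) and 2D (right). Diamonds with bars are the share of the group mean with its 95% Fieller interval, and open circles are single inhibitor arrays. Both DUSP6 probe sets have lower shares with PD-98059 (41.8% and 36.5% in 3D, 16.9% and 9.91% in 2D) than DUSP5 (73.6% and 113%). With U0126 in 2D they are lower too (67.4% and 81.6% against 133%).

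Set directly against each other, U0126 gave lower levels than PD-98059. In 3D DUSP5 was lower with U0126 by 1.07 ± 0.23 (SE, 2.09-fold, limma adjusted p = 0.00281) and DUSP6 by 0.74 ± 0.11 (1.67-fold, adjusted p = 3.62e-05), where 8.82% of tested probe sets were called lower. In 2D DUSP6 was lower with U0126 by 0.54 ± 0.10 (1.46-fold, limma adjusted p = 0.00233), where 0.778% were called lower. The second DUSP6 probe set was lower by 1.02 ± 0.18 in 3D and by 0.83 ± 0.16 in 2D (limma adjusted p = 0.000327 and 0.00539). With the arrays of the 2 compared groups fitted alone the DUSP6 difference in 2D was the same and its adjusted p 0.135. DUSP5 in 2D differed by -0.61 ± 0.21, with an interval of -1.05 to -0.17 before adjustment, and its limma adjusted p of 0.195 missed the threshold. DUSP5 minus DUSP6 shifted between the inhibitors by -0.33 in 3D (exact permutation p = 0.200) and by -0.065 in 2D (p = 0.800), with overlapping arrays. The smallest p these group sizes allow is 0.1 in 3D and 0.0571 in 2D, so this test could not pass 0.05 in either culture.

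The cultures differed in DUSP5. Its HGF effect was smaller in 3D than in 2D by 0.93 ± 0.28 (SE; limma adjusted p of the difference = 0.00794, where 26.3% of tested probe sets were called lower). Its drop with PD-98059 was smaller in 3D by 1.91 ± 0.29 (adjusted p = 1.09e-05, 22.0% called higher) and that with U0126 by 1.45 ± 0.30 (limma adjusted p = 0.000458, 19.9% called higher). These 3 differences share the HGF arrays of both cultures. Without 3D HGF replicate 1 they were -0.69, 1.67 and 1.21, and all 3 still passed. DUSP5 itself was 0.75 ± 0.20 lower in 3D than in 2D with HGF (limma adjusted p = 0.00180, 35.7% called lower), 1.16 ± 0.21 higher with PD-98059 (adjusted p = 6.17e-05, 26.3% called higher) and 0.70 ± 0.23 higher with U0126 (limma adjusted p = 0.0154, 17.5% called higher). The control groups differed by 0.18 ± 0.20 (limma adjusted p = 0.475, 52.3% called in either direction).

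The RNA-quality index differed between the cultures too, as given above. With the index as a covariate the lower DUSP5 in 3D HGF was -0.17 (limma adjusted p = 0.561) and the control difference 0.52 (adjusted p = 0.0260), while the smaller HGF effect in 3D was -0.69 (adjusted p = 0.0196). Without 3D U0126 replicate 1, 2D U0126 replicate 1 or 2D U0126 replicate 3 the higher DUSP5 of 3D with U0126 was 0.65, 0.59 and 0.65, with limma adjusted p of 0.0531, 0.0738 and 0.0533.

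On the log2 scale DUSP6 differed less between the cultures. By the share of the HGF rise that U0126 removed, which has no test, it differed more. That share was 132% in 3D and 67.4% in 2D, beside 123% and 133% for DUSP5. The second DUSP6 probe set gave 109% and 81.6%, with overlapping intervals. The DUSP6 HGF effect in 3D minus that in 2D was -0.25 ± 0.13 (SE, limma adjusted p = 0.115, 48.3% of tested probe sets called in either direction). The second probe set gave 0.24 (adjusted p = 0.376), the opposite sign. The difference of the PD-98059 effect was -0.16 ± 0.13 (limma adjusted p = 0.386), and that of the U0126 effect was -0.36 ± 0.14 (adjusted p = 0.0454, 16.6% called lower), a larger drop in 3D. The second probe set gave -0.59 ± 0.23 for the latter (limma adjusted p = 0.0499). This difference missed the threshold in 11 of the 14 fits that left out 1 array, with -0.37 to -0.28 and adjusted p of up to 0.149; it passed without 3D HGF replicate 4, 3D U0126 replicate 3 or 2D U0126 replicate 1. In the controls DUSP6 was 0.44 ± 0.09 higher in 3D (limma adjusted p = 0.000265, 23.6% called higher), but the second probe set gave -0.10 (adjusted p = 0.599). With HGF, with PD-98059 and with U0126 the difference of 3D from 2D was 0.19, 0.025 and -0.17 (limma adjusted p = 0.0753, 0.861 and 0.203). Without 3D HGF replicate 4 the first of these was 0.27 (adjusted p = 0.00959), and with quantile normalization once more the second was -0.061.

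Of the other MAP kinase phosphatases none that could be tested was called above control with PD-98059. Over all tested probe sets 21.6% were called higher there in 3D and 12.5% in 2D. With 3 tested genes at such shares, the lack of a call does not set them apart from DUSP6. Of 8 such genes 6 had a probe set and 3 passed the filter on low signal: DUSP1, a nuclear phosphatase of all 3 MAP kinase classes, and DUSP10 and DUSP16, which prefer JNK and p38. DUSP7, DUSP8 and DUSP9 did not exceed 2.09 on the log2 scale. DUSP1 rose with HGF by 1.63 in 3D and 1.43 in 2D, and fell below control with PD-98059 by 1.13 in 3D and by 0.77 in 2D. DUSP10 rose by 0.63 in 3D and 2.18 in 2D, and differed from control with PD-98059 by 0.07 in 3D and -0.26 in 2D (limma adjusted p = 0.759 and 0.201). DUSP16 rose by 1.77 in 3D, and in 2D its difference was 0.21 (limma adjusted p = 0.301). With PD-98059 it differed from control by -0.26 in 3D and -0.14 in 2D (limma adjusted p = 0.272 and 0.587). The median HGF difference of the 3 genes was 1.63 in 3D and 1.43 in 2D, against -0.00250 and -0.0266 over all tested probe sets.

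Of the 14 atypical dual-specificity phosphatases, small relatives that lack the MAP kinase-binding domain, 11 had a probe set and 4 passed the filter, namely DUSP3, DUSP11, DUSP14 and DUSP19. With HGF 1 of 4 rose in 3D and 2 of 4 in 2D, with median differences of 0.12 and 0.38, where 29.4% and 26.3% of all tested probe sets were called higher. With PD-98059 1 of 4 fell in 3D and 3 of 4 in 2D, and with U0126 2 of 4 and 3 of 4. The shares called lower over all tested probe sets were 15.4% and 24.9% with PD-98059 and 23.8% and 24.3% with U0126.

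Other regulators of the pathway, most of them inhibitors and not all of them feedback genes, were mostly dim. Of 13 genes 11 had a probe set and 5 passed the filter, and SPRY1, SPRY4 and SPRED1 to SPRED3, inhibitors of RAS and RAF activation, did not exceed 2.64. ERRFI1, an inhibitor of the EGF receptor, rose by 2.52 with HGF in each culture and with PD-98059 it differed from control by -0.26 in 3D and -0.27 in 2D (limma adjusted p = 0.119 and 0.106). IER3, an early response gene that can prolong ERK activity, rose by 1.03 in 3D and 2.22 in 2D. With PD-98059 IER3 stayed above control, by 0.62 in 3D and 0.51 in 2D (limma adjusted p = 0.00731 and 0.0255), as DUSP6 did. In all, HGF raised 2 of the 5 in 3D and 3 in 2D, and lowered none, with medians of -0.15 and 0.74, where 29.4% and 26.3% of all tested probe sets were called higher.

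Among 18 genes transcribed in response to ERK, IER3 again among them, 11 passed the filter. HGF raised 10 of them in 3D and 8 in 2D, and lowered EGR1 in 2D by 1.72, with medians of 1.03 and 1.17, where 29.4% and 26.3% of all tested probe sets were called higher. PD-98059 lowered 10 in 3D and 11 in 2D against HGF alone, and U0126 lowered 10 and 11, against 15.4% and 24.9% of all tested probe sets called lower with PD-98059 and 23.8% and 24.3% with U0126. The cell cycle gene CCND1 rose by 1.93 in 3D and 2.25 in 2D, and the growth factor gene EREG by 4.0 and 2.46. With PD-98059 in 3D, 5 of the 11 stayed above control, namely MYC by 0.37, CCND1 by 0.63, PHLDA1 by 1.01, EREG by 0.98 and IER3. In 2D this held for MYC, by 0.43, and IER3. Called above control were 21.6% of all tested probe sets in 3D and 12.5% in 2D. In each culture 4 of the 11 were below control with PD-98059, namely EGR1, FOS, IER2 and MCL1, where 17.2% and 13.0% of all tested probe sets were called lower. The difference from control was -1.85 in 3D and -4.43 in 2D for EGR1, and -0.50 and -1.07 for FOS.

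With PD-98059 the share of DUSP6 stood at the low end of these genes. The genes of the 3 lists of MAP kinase phosphatases, other pathway regulators and ERK output that rose with HGF numbered 14 in 3D and 12 in 2D. With PD-98059 in 2D the share of their rise that was removed ran from 71.3% in MYC to 244% in MCL1, with a median of 111%, against 16.9% for DUSP6 and 113% for DUSP5. With PD-98059 in 3D it ran from 39.6% in IER3 through 44.2% in PHLDA1 to 226% in FOS, with a median of 99.1%, against 41.8% for DUSP6 and 73.6% for DUSP5. With U0126 the median was 118% in 3D and 105% in 2D, and the lowest were 54.6% and 64.3%, both in IER3, beside 132% and 67.4% for DUSP6. A share above 100% in a gene with a small rise, such as FOS, whose rise in 3D was 0.39, rests on a small divisor. These shares have no test.

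**Figure D4:**
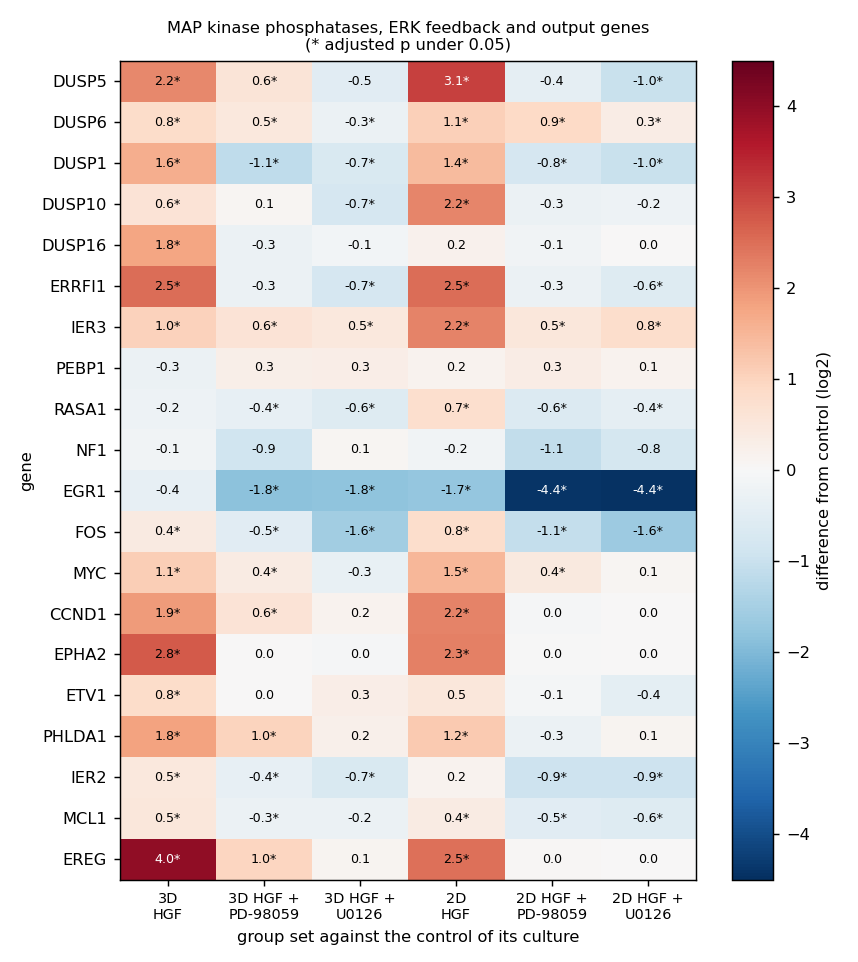
Difference from the control of the same culture (log2, colour and printed value) for DUSP5, DUSP6 and the tested genes of the lists of MAP kinase phosphatases, other pathway regulators and ERK output, with HGF, HGF and PD-98059, and HGF and U0126 in 3D and 2D. An asterisk marks a limma adjusted p under 0.05. In the column of 2D with PD-98059 DUSP6 keeps 0.89 of its 1.07, while MYC and IER3 keep 0.43 and 0.51.

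Among the genes of the cascade that feeds both phosphatases calls in either direction were common, as they were over all probe sets. Of 21 genes from MET to the RSK kinases 17 had a probe set and 12 passed the filter. HGF raised 6 and lowered 3 in 3D, and raised 8 and lowered 1 in 2D, with medians of 0.32 and 0.62. Over all tested probe sets 29.4% were called higher and 32.6% lower with HGF in 3D, and 26.3% and 29.2% in 2D. MET, the HGF receptor, rose by 1.12 in 2D, and its 3D difference was 0.28 (limma adjusted p = 0.141). MAP2K1, which encodes a form of MEK, the target of both inhibitors, fell by 0.52 in 3D and rose by 0.36 in 2D with HGF. MAP2K2 did not pass the filter. Of 13 genes of the JNK, p38 and ERK5 branches 12 had a probe set and 4 passed. HGF raised 1 and lowered 2 of these in 3D and raised 2 in 2D, to be read beside the same shares over all probe sets.

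Across the 8 group means DUSP5 and DUSP6 had a Pearson correlation of 0.724, and DUSP5 and the second DUSP6 probe set 0.682, while the DUSP6 probe sets had 0.940 with each other. These are descriptions over groups that share arrays and processing. Among 6839 named probe sets whose group means span at least 1 on the log2 scale, the genes most like DUSP5 were SH3BP5 (r = 0.985), TEX10 (0.984), CCDC125 (0.982), CD44 (0.981) and KLHL2 (0.979). CD44, a receptor for hyaluronan, had group means from 5.37 in 2D U0126 to 8.19 in 2D HGF. Those most like DUSP6 were KLF4 (r = 0.931), WRAP53 (0.925), RRP1B (0.913), MYC (0.898) and AKR1B1 (0.882). KLF4, a transcription factor of epithelial cells, was at 10.04 in 2D HGF, 9.32 in 2D PD-98059, 8.35 in 2D U0126 and 7.10 in 2D control. With PD-98059 in 2D the means of 4 of the 5 genes nearest to DUSP5 lay below control, TEX10 being at 10.03 against 9.98, and those of all 5 nearest to DUSP6 lay between HGF and control, patterns by which they were chosen.

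**Figure D5:**
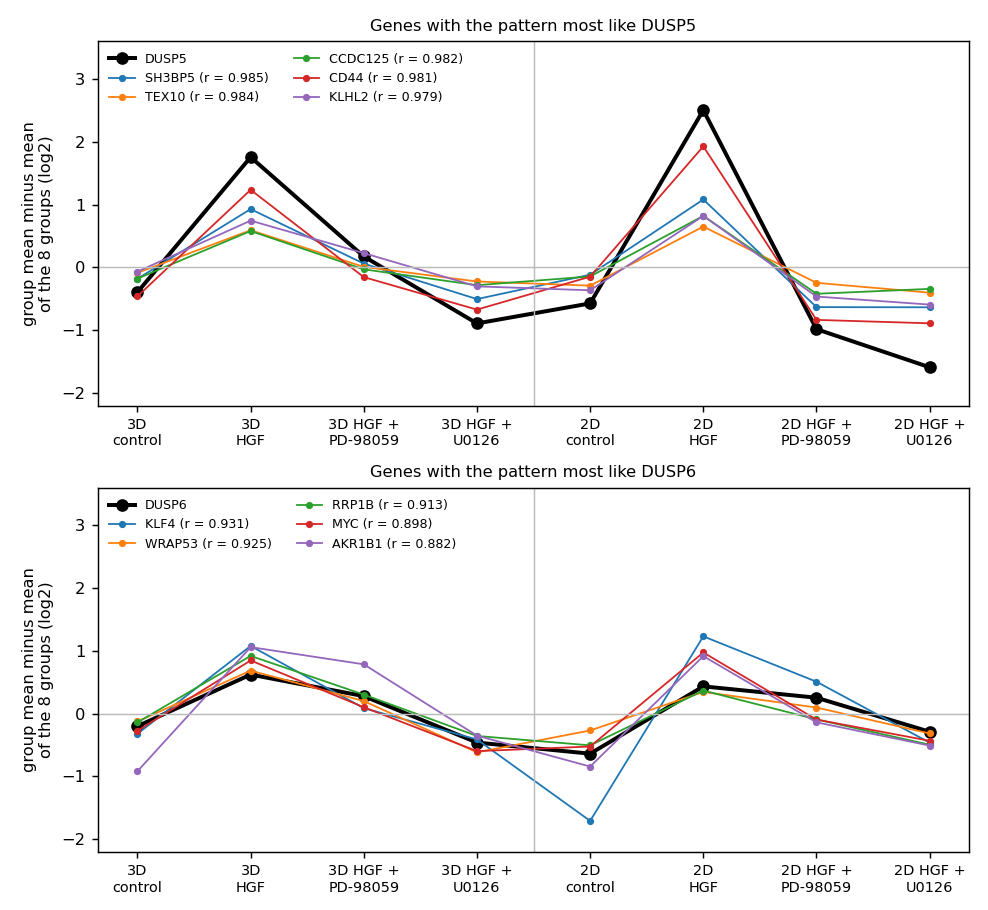
Group means minus the mean of the 8 groups (log2, y axis) over the 8 groups (x axis) for DUSP5 (upper panel) and DUSP6 (lower panel) in black, with the 5 genes of highest Pearson correlation over the group means in colour. DUSP5 peaks in both HGF groups alone, whereas DUSP6 stays high in both PD-98059 groups.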

How the data were processed

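The authors deposited 1 log2 level for each probe set and array. GCRMA, MAS5, Partek 6.6 and Affymetrix Expression Console 1.1 are named in the submitters' processing notes, without their roles. The genome build is not given in the sources used here. No further normalization was applied. Of 43035 probe sets 111 are Affymetrix controls. Gene names come from the platform annotation, in which 29264 probe sets name a single gene, 439 several and 13332 none. Lists use 1 probe set per gene, the brightest tested one.

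Group means were fitted with limma 3.58.1 in R 4.3.3 over all arrays (lmFit, eBayes with trend), with 19 two-sided comparisons adjusted by the Benjamini-Hochberg method over 16571 probe sets. The script was tested on simulated data. No 2 arrays were identical. The genes most like each were the 5 of highest correlation over group means. The members and lists were chosen with earlier results of these data known. Alternatives were other filters, scalings, fits, covariates, blocks and probe sets, and each array left out.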

Additional observations from a re-analysis of the deposited data

Results flagged for a closer look

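Replicate 1 of 3D HGF stood apart from its group in DUSP5, at 9.21 on the log2 scale against 10.07 in the nearest of the other 3 arrays. In the second DUSP6 probe set replicate 1 of 3D control was low, at 10.08 against 10.33 in the nearest. Such arrays were looked for in the 5 groups of 4 arrays for each of the 3 probe sets, and chance marks about 1 in 20 of these 15 sets of values.

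Effects that differed between the cultures, each tested as a difference in limma, were the DUSP5 response to HGF (-0.93, 3D minus 2D), to PD-98059 (1.91) and to U0126 (1.45). The DUSP6 response to U0126 differed by -0.36, and by -0.59 in the second probe set. All of these share HGF arrays, those of 3D being the least alike.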

How the results depend on the processing

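Calls of DUSP5 and DUSP6 kept their direction and their side of the threshold in 372 of 413 recomputed values with other settings and in 291 of 322 with 1 array left out. The DUSP5 differences of the HGF, PD-98059 and U0126 effects between cultures passed in all 27, 26 and 25 alternatives run. The cause of each change below was not tested, except that fitting the compared groups alone uses fewer arrays.

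Calls lost were, without a filter on low values, DUSP5 with PD-98059 against control in 3D (0.57), DUSP6 with U0126 against control in 3D (-0.26) and the DUSP6 difference of the U0126 effect (-0.36); without the trend the last 2 of these (-0.26 and -0.36); and with the compared groups alone the same 2 (-0.26 and -0.36), DUSP6 with PD-98059 in 3D (-0.34) and U0126 against PD-98059 in 2D (-0.54). With the RNA-quality index as a covariate the lost calls were DUSP5 with PD-98059 against control in 3D (0.38) and 3D against 2D with HGF (-0.17), and DUSP6 with U0126 against control in 3D (-0.19) and the U0126 difference (-0.24). In the second DUSP6 probe set they were U0126 against control in 3D (-0.13) and 2D (0.21).

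Calls gained were, for DUSP5 with U0126 against control in 3D, with quantile normalization (-0.54), array weights (-0.45), the compared groups alone (-0.50) and the covariate (-0.72). The covariate also gave DUSP5 with PD-98059 against control in 2D (-0.46), U0126 against PD-98059 in 2D (-0.64) and 3D against 2D control (0.52). For DUSP6 with PD-98059 in 2D calls came with median centring (-0.23), array weights (-0.20) and the covariate (-0.29). For DUSP6 in 3D against 2D with HGF they came with quantile normalization (0.18), median centring (0.31), array weights (0.27) and without 3D HGF replicates 1 and 4 (0.27), and with U0126 with array weights (-0.23) and the second probe set (-0.45). The DUSP6 difference of the HGF effect passed with quantile normalization (-0.29) and the covariate (-0.32), and that of the PD-98059 effect with quantile normalization (-0.25).

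Signs turned for DUSP6 in 3D against 2D with PD-98059 under quantile normalization (-0.061), the covariate (-0.037) and the second probe set (-0.26). In that probe set they also turned for 3D against 2D control (-0.10), the HGF effect in 3D minus that in 2D (0.24) and the within-array shift between inhibitors in 2D (0.22). Median centring moved the median of all probe sets by at most 0.131. Shares moved by over 1 SD on the linear scale for DUSP5 (86.6% with PD-98059 and 108% with U0126 in 3D, 107% with U0126 in 2D) and DUSP6 with PD-98059 in 3D (49.6%), and for DUSP6 in 3D with median centring (51.5%, PD-98059) and the second probe set (109%, U0126).

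With each array left out in turn the value ran from 0.48 to 0.64 for DUSP5 with PD-98059 against control in 3D, from -0.62 to -0.28 in 2D, and from 0.59 to 0.86 for 3D against 2D with U0126. For DUSP6 it ran from -0.33 to -0.19 with U0126 against control in 3D and from 0.27 to 0.43 in 2D, from -0.25 to -0.12 with PD-98059 in 2D, from 0.12 to 0.27 for 3D against 2D with HGF and from -0.034 to 0.090 with PD-98059, and from -0.45 to -0.28 for the U0126 difference. The within-array shift between inhibitors in 2D ran from -0.23 to 0.13.

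The replicate numbers were not taken to pair arrays. Same-numbered arrays correlated from -0.34 to 0.60 in their deviations by title, and every pair was over 0.1 in 1 of 16 comparisons by title (3D against 2D with U0126, 0.25 to 0.60) and in 1 by sample name (U0126 against control in 2D, 0.19 to 0.33), in which the matching block changed no call. With the title number as a replicate block no call changed, DUSP5 with PD-98059 against control in 3D being 0.60. With the number of the sample name as the replicate block that difference was 0.54 (limma adjusted p = 0.0831) and the DUSP6 difference of the U0126 effect -0.35 (adjusted p = 0.0620), both lost.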
